A study of Arabidopsis thaliana with 20 samples.

Results

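The histone genes of *Arabidopsis thaliana* were compared between shoots grown in Parafilm-sealed dishes, which the labels call non-aerated, and shoots grown in aerated dishes. A row of the deposited table was taken as a histone gene when its description held "histone superfamily protein", "histone H1", "histone H2", "histone H3", "histone H4" or "histone 2A" and no word of methyl, acetyl, chaperone or kinase. This wording found 50 of the 33296 rows, and 2 further rows were removed by the excluded words. Of the 50 genes, 47 belonged to a histone class: 2 H1, 13 H2A, 11 H2B, 13 H3 and 8 H4 genes. The remaining 3 carried a histone word for another reason. AT2G30630 is described as H1flk-like, AT3G07565 as a histone H2A deubiquitinase, and AT5G19490 as a histone superfamily protein that belongs to none of these classes. The linker histone gene HIS1-3 (AT2G18050) and the H3 gene MGH3 (AT1G19890) fell outside the wording and were not members.

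All plants compared were the wild type Col-0, grown on 0.5 Murashige-Skoog medium with 1% sucrose. One day after vernalization the lids of 4 dishes were replaced by lids with filtered inlets and outlets and an air flow of 0.15 to 0.25 L/min, whereas the other 4 dishes were opened briefly and closed again. Each group held 4 libraries, each from the pooled shoots of 10 plants of a dish, so that differences among the plants of a dish were not measured. The labels give the harvest as 15 days after vernalization, and the text of the study does not give a single day. The values are read counts divided by a size factor per library, here called normalized counts. The columns are named AER1, AER3, AER5 and AER7 for aerated dishes and NON2, NON4, NON6 and NON8 for Parafilm-sealed dishes.

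Histones package DNA into nucleosomes. A nucleosome core holds the histones H2A, H2B, H3 and H4, and H1 binds the linker DNA between cores. A dividing cell must make new histones while it copies its DNA, and genes for the replicative forms, among them H3.1 and H4, are most active in S phase. Plant histone messages carry poly(A) tails, unlike most replicative histone messages of animals, and are thus present in mRNA libraries. Variant histones serve other roles: H3.3 replaces H3 at transcribed genes outside of replication, H2A.Z marks the beginning of genes, H2A.W marks heterochromatin, H2A.X is phosphorylated at DNA breaks and CENH3 marks centromeres. The level of histone messages is therefore read as a sign of cell proliferation, and the comparison asked whether it differed between Parafilm-sealed and aerated shoots. In pooled shoots, fewer dividing cells and less histone RNA per cell cannot be told apart.

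Promoters of 6 histone genes are shown because they belong to the genes that the results turn on. They are the H2A gene HTA10 (AT1G51060), an H3.1 gene (AT1G09200), the most abundant H4 gene (AT5G59690) and the most abundant H3.3 gene (AT4G40040), all with the histone octamer motif CGCGGATC, and the H2A.Z gene HTA11 (AT3G54560) and an H2B gene (AT2G28720), both without it. Each sequence is the 130 bases before the annotated start of the gene, from the RefSeq genome (TAIR10.1) and written on the strand of the gene. Capitals mark the octamer on either strand (CGCGGATC or GATCCGCG).
HTA10, chr1:18926681-18926810, plus strand: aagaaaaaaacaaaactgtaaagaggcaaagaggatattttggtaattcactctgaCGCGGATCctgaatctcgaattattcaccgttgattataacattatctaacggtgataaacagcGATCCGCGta
AT1G09200, chr1:2972335-2972464, minus strand: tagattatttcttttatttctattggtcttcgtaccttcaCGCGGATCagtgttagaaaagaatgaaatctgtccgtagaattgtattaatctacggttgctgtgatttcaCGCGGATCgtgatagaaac
AT5G59690, chr5:24051344-24051473, plus strand: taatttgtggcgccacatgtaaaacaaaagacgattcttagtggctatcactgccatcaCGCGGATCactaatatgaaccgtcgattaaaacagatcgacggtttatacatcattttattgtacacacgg
AT4G40040, chr4:18558946-18559075, minus strand: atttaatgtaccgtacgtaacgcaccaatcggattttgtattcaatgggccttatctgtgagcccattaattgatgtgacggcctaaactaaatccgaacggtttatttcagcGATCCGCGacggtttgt
HTA11, chr3:20196010-20196139, plus strand: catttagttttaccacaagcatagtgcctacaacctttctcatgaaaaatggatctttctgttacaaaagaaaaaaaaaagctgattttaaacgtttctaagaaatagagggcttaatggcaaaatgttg
AT2G28720, chr2:12326678-12326807, plus strand: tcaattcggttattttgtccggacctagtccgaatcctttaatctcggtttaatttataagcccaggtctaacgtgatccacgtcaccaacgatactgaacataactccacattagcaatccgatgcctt

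Over windows of 300 bases (250 before to 50 after the start), the octamer was found in 10 of the 47 promoters of histone-class genes (21.3%), and in 40 of 27442 promoters of all protein-coding genes (0.146%). It was found in 3 of 5 H3.1, 2 of 4 replicative H2A, 2 of 8 H4, 1 of 3 H2A.W, 1 of 3 H3.3 and 1 of 2 H1 promoters. None of the 4 H2A.Z and none of the 11 H2B promoters held it. The octamer was thus not restricted to replicative forms, since the H3.3 gene AT4G40040 carried it at position -17 from its start. An E2F site, searched as TTTCCCGC, TTTGGCGC, TTTCGCGC or TTTGCCGC on either strand, was found in 3 of the 47 histone promoters (6.38%) and in 1.76% of all promoters. No histone promoter held both the octamer and an E2F site. A match describes the letters of a window only.

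Each library held between 34330463 and 60255788 reads in genes. One aerated library, AER5, departed from the others in a way that went with gene length, and histone messages are short. The median exonic length of the tested members was 842 bases, against 1773 bases for all tested genes, and 31 of the tested members were shorter than 1000 bases. In AER5, genes with more than 500 and up to 750 exonic bases were higher than their mean over the 8 libraries by a median of 0.30 on the log2 scale, and genes over 3000 bases had a median deviation of -0.34. In the other libraries these medians lay between -0.12 and 0.09 for the short genes and between -0.03 and 0.10 for the long genes. Over the tested histone genes, the median deviation was 0.35 in AER5, no further than 0.02 below 0 in the other aerated libraries, 0.16 in NON8 and between -0.22 and -0.07 in the other Parafilm-sealed libraries. AER5 was the highest aerated library for 39 of the 45 tested members, and NON8 the highest Parafilm-sealed library for 33. Calls that changed without AER5 are therefore given with and without it. The part of gene length in the histone values of AER5 was not tested.

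**Figure D1:**
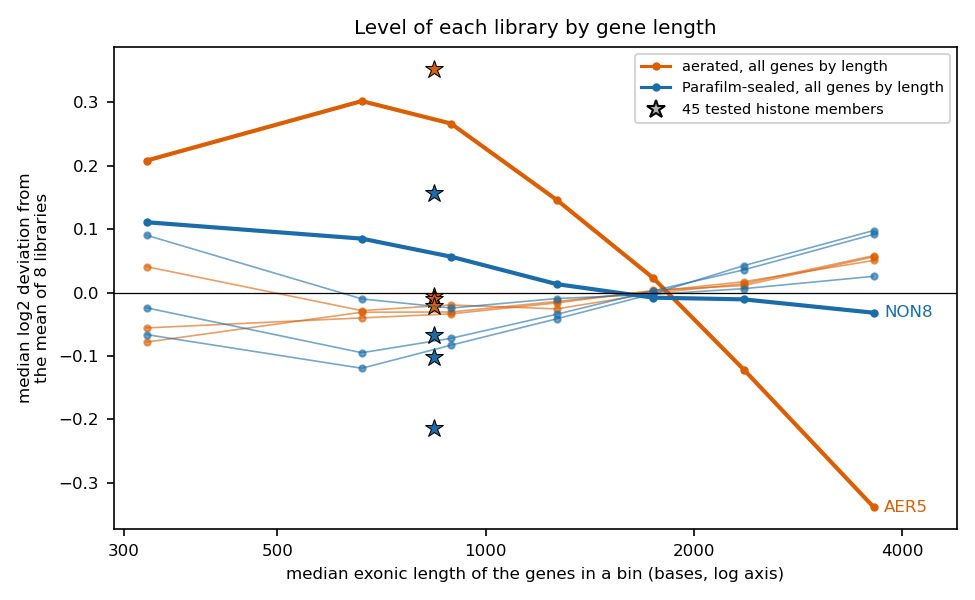
Median log2 deviation of each library from the mean of the 8 libraries (y axis), for all tested genes in 7 bins of exonic length (lines; x axis, bases, log scale) and for the 45 tested histone genes (stars, at their median length of 842 bases). The thick orange line, AER5, falls from 0.30 in short genes to -0.34 in the longest bin, and its star stands at 0.35.

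The tissue was checked against marker genes. The 4 shoot markers, among them the Rubisco subunit gene RBCS1A and the chlorophyll-binding protein gene CAB2, were abundant in all libraries, with summed levels of 1393460 to 1904640 normalized counts in aerated and 1119060 to 1406720 in Parafilm-sealed shoots. CAB2 fell (log2 fold change -0.67, limma adjusted p 0.0338) without overlap between the groups, but of the fits with 1 library left out it was called in that without NON8 alone (without AER5 -0.56, limma adjusted p 0.0671). LHCB2.1 was at -0.57 (adjusted p 0.0858), and the other 2 shoot markers were not called. Of the 5 root markers, PYK10 made up nearly all of the summed level of 13434 to 17580.3 in aerated and 11830.1 to 16380.5 in Parafilm-sealed shoots, and the iron transporter gene IRT1 was at 0 in 2 aerated and 3 Parafilm-sealed libraries. PYK10 was at 0.04, and the weaker root markers BGLU22, CASP1 and SHV2 were at -1.10, -1.13 and -0.95, with overlap between the groups and limma adjusted p values of 0.0586, 0.165 and 0.387. The median of the 4 tested root markers was -1.03, and CASP1 was called as lower without NON8 (-1.65, limma adjusted p 0.0184). The 9 genes of shoot meristem and young leaf had summed levels of 6266 to 7417 in aerated and 4202 to 5499.6 in Parafilm-sealed shoots, without overlap. Among them the receptor kinase gene CLV1 fell (log2 fold change -0.66, SE 0.11, adjusted p 0.00231 by limma), and the defining stem cell genes CLV3 and WUS stayed at or under 3.4 normalized counts in all libraries. The part of these differences in the histone values was not tested.

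Histone genes as a group changed little. Of the 50 members, 45 were abundant enough to be tested, which took 10 normalized counts or more in 4 or more of the 8 libraries. A gene was called when its adjusted p (limma over all 20160 tested genes, Benjamini-Hochberg) was under 0.05. In Parafilm-sealed shoots, 2 of the 45 members fell and 0 rose, whereas 22.4% of all tested genes were called, 10.0% as lower and 12.4% as higher. An unadjusted limma p under 0.05 was reached by 6 of the 45, against 7275 of all 20160 tested genes. With edgeR, the same 2 genes fell and 0 rose, and with DESeq2 the same 2 genes fell and HTA10 rose. Of all 20160 tested genes, edgeR called 4618 and DESeq2 5669. The count depended on single libraries: leaving out NON8 gave 5 lower and 0 higher members, with 5065 of all 20334 tested genes called. Leaving out AER5 gave 1 lower and 3 higher (3662 of all 20293 genes called). Leaving out AER3 or NON6 gave none in either direction, with 3334 of all 20333 and 3664 of all 20345 genes called. Removing the trend with exonic length from each library gave 2 lower and 2 higher members (HTA10 and HTB4), with 5234 of all 20160 genes called. No histone gene was a DEG (differentially expressed gene) in the sense of an adjusted p under 0.05 and a change of at least 2-fold, a rule met by 7.88% of all tested genes.

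The size of the changes was small as well as their number. The median log2 fold change (Parafilm-sealed over aerated) was -0.13 over the 45 members and -0.002 over all tested genes. Below 0 lay 30 members and above it 15, against 10122 and 10038 of all 20160 tested genes. With 1 library left out, the median of the members ranged from -0.22 (without NON8) to -0.09 (without AER5), and it was -0.06 with the length trend removed. The groups of 4 libraries did not overlap for 3 of the 45 members, against 27.3% of all tested genes. The 95% interval of the change lay within a 2-fold change in either direction for 43 of the 45 members (95.6%). This held for 73.1% of all tested genes and for 96.6% of the mitosis genes described below. Among the members, the exceptions were the H2A.W gene HTA12 and the weakly expressed H3 gene AT1G13370. The share of all normalized counts taken by the 47 histone-class genes was 0.175% in AER1, 0.175% in AER3, 0.208% in AER5 and 0.180% in AER7, and 0.186% in NON2, 0.179% in NON4, 0.159% in NON6 and 0.195% in NON8. These shares overlapped, and the lowest and the second highest both came from Parafilm-sealed dishes.

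**Figure D2:**
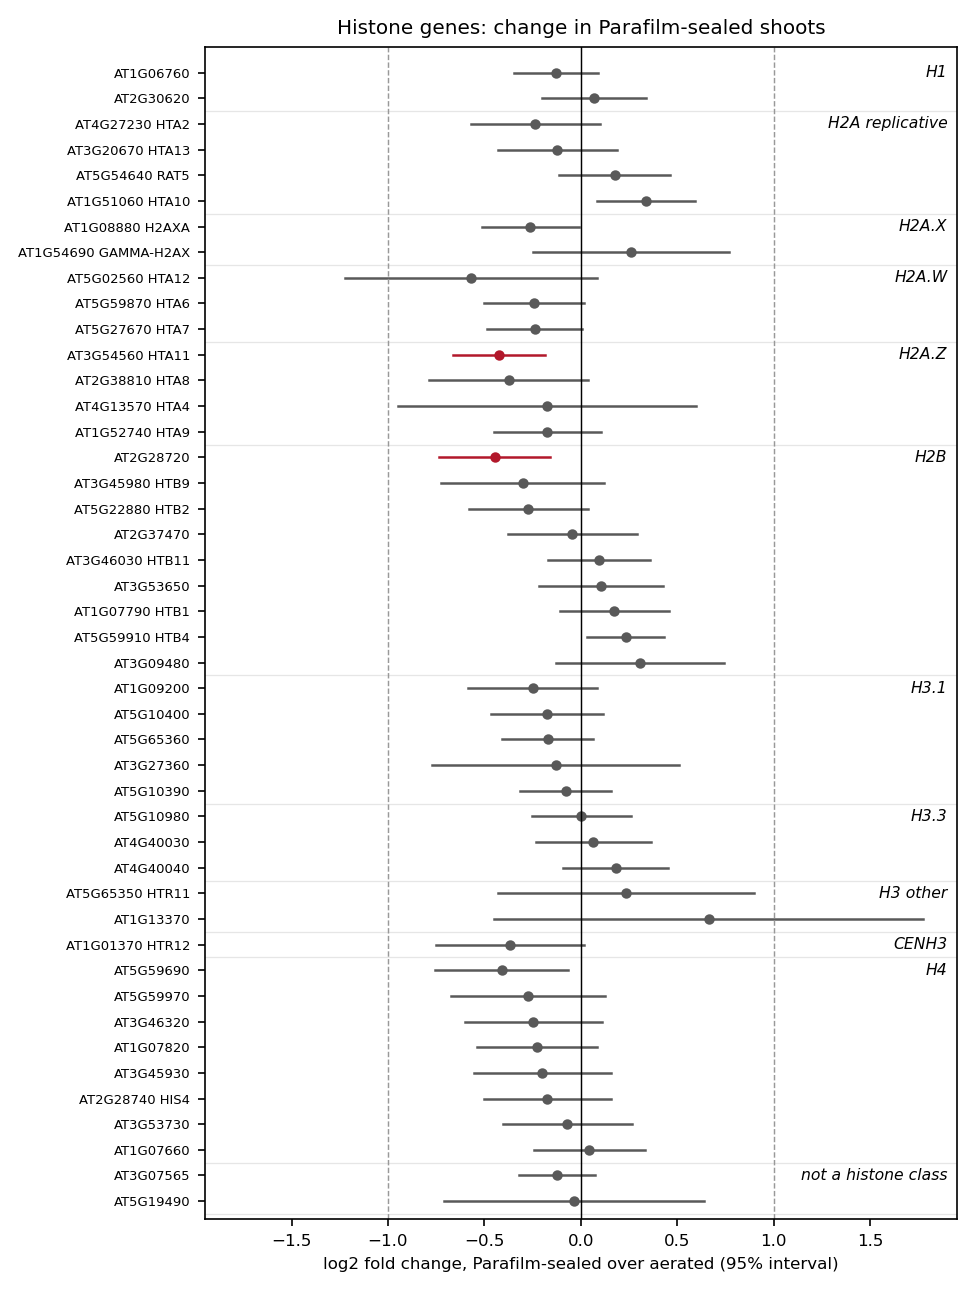
Log2 fold change of the 45 tested histone genes with its 95% interval (x axis), ordered by class (rows). Red marks the 2 genes called, HTA11 at -0.42 and AT2G28720 at -0.45, and the dashed lines mark a 2-fold change.

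The levels of histone genes spanned almost 3 orders of magnitude, and their order was nearly the same in both groups. Per kb of exon, the highest level in aerated shoots was that of the H3.3 gene AT4G40040 with 8715 normalized counts per kb, followed by the H3.3 gene AT5G10980 (5431), the H4 gene AT5G59690 (4592) and the H3.3 gene AT4G40030 (4568). The lowest of the tested members was the H3 gene AT1G13370 with 12.2. Across the 45 genes, Spearman's rho between the levels per kb of both groups was 0.988, as a description across genes of the same libraries. Genes that encode the same protein thus differed widely in level. All 8 H4 genes encode an identical protein of 103 amino acids, and their levels per kb in aerated shoots ranged from 685 in AT1G07660 to 4592 in AT5G59690. The 5 H3.1 genes encode an identical protein of 136 amino acids and ranged from 153 in AT3G27360 to 3462 in AT5G65360. H3.1 and H3.3 (AT5G65360 and AT4G40040) are identical at 132 of 136 amino acids and differ at 4.

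**Figure D3:**
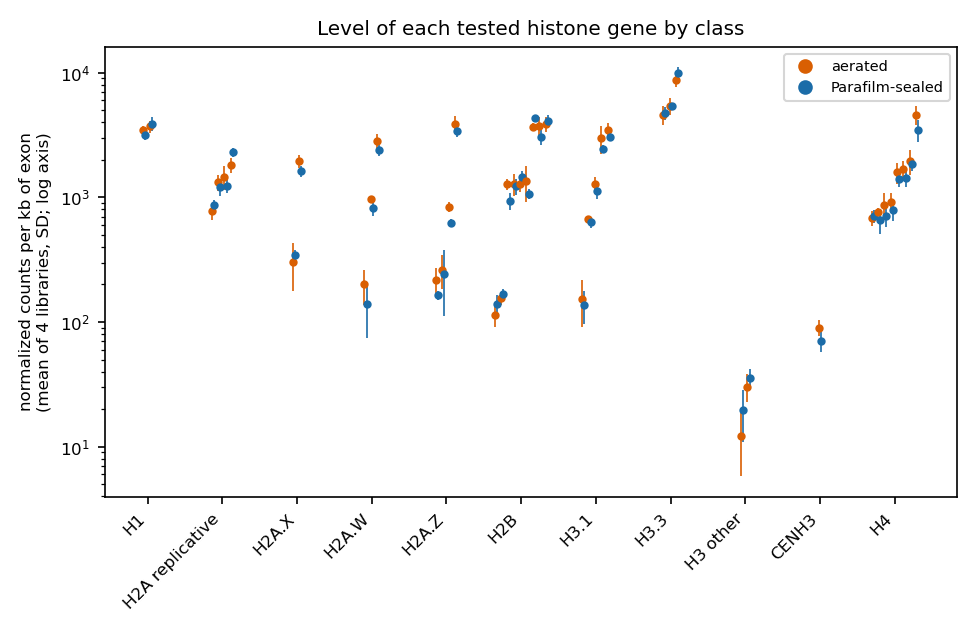
Level of each tested histone gene in normalized counts per kb of exon (y axis, log scale; mean and SD of 4 libraries) by class (x axis), for aerated (orange) and Parafilm-sealed (blue) shoots. The H3.3 genes lie at the top, up to 8715 in aerated shoots, and the other H3 genes at the bottom, down to 12.2.

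The genes for linker histone H1 did not pass the test. The most abundant, AT2G30620, had 5281, 6071, 6829.8 and 6600.4 normalized counts in the aerated libraries AER1, AER3, AER5 and AER7 and 7322, 5981, 5603 and 7103 in the Parafilm-sealed libraries NON2, NON4, NON6 and NON8. The groups overlapped (log2 fold change 0.07, SE 0.12, limma adjusted p 0.727). AT1G06760 had 3621, 3931, 4381 and 4074 in aerated and 3809.6, 3809, 3184 and 3832 in Parafilm-sealed shoots in the same order, which overlapped as well (-0.13, adjusted p 0.372). About 41.9% of the exonic bases of AT1G06760 are shared with neighbouring genes, and the libraries were not stranded, so its reads and theirs cannot be told apart. The stress-inducible linker histone gene HIS1-3, no member by its description, had 487, 392, 518 and 462 in aerated and 272, 56.5, 272 and 313 in Parafilm-sealed shoots. All 4 Parafilm-sealed libraries were lower (log2 fold change -1.27, 95% interval -2.31 to -0.24), but the adjusted p of 0.0761 did not pass. Leaving out a library gave adjusted p values from 0.00842 to 0.157 for HIS1-3, which was named after its values were seen.

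Replicative H2A genes moved in both directions. The most abundant, HTA10, had 1519, 1357, 1821 and 1420.3 normalized counts in aerated and 2004, 1852, 1738 and 2114 in Parafilm-sealed shoots. Only AER5 reached into the range of the Parafilm-sealed libraries (log2 fold change 0.34, SE 0.11, adjusted p 0.057). Without AER5, HTA10 was called as higher (0.43, limma adjusted p 0.0172). The other 3 replicative H2A genes, RAT5, HTA13 and HTA2, had log2 fold changes between -0.24 and 0.18, and none was called.

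H2A.X is the form phosphorylated at DNA breaks, and its 2 genes lay on opposite sides of 0. H2AXA (AT1G08880) had 1999, 2008, 2524 and 2074 in aerated and 1927, 1915, 1538 and 1794 in Parafilm-sealed shoots. The groups did not overlap, although AER1 and NON2 were separated by a small gap (-0.26, SE 0.11, limma adjusted p 0.122). The second gene, AT1G54690, was named after its values were seen and had 191, 189.6, 394 and 199.5 in aerated and 273, 307, 248 and 282 in Parafilm-sealed shoots. Its AER5 value was above all others, the remaining aerated values were below all others, and without AER5 it was called as higher (0.52, limma adjusted p 0.0191). As 62.3% of its exonic bases are shared with neighbouring genes, its reads are uncertain.

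All 3 H2A.W genes, which encode the heterochromatin form, lay below 0, and none was called. HTA6, the most abundant, had 2049.5, 2059, 2639.6 and 2143 in aerated and 1832, 1749, 1737 and 2191 in Parafilm-sealed shoots. NON8 alone lay within the aerated range (-0.24, SE 0.12, limma adjusted p 0.162). HTA12 (AT5G02560) had 258, 284, 438 and 226 in aerated and 175, 149, 159 and 356 in Parafilm-sealed shoots. NON8 again lay apart from the other 3 (-0.57, SE 0.29, adjusted p 0.191), and without it HTA12 was called as lower (-0.86, limma adjusted p 0.0177). HTA12 overlaps the H2B gene AT5G02570 on the other strand, which is listed at 0 in all libraries.

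The 4 H2A.Z genes were also all below 0, from -0.42 to -0.17, and 1 of them fell. HTA11 (AT3G54560, chromosome 3, 20196140 to 20197726 on TAIR10.1) had 874, 922, 985 and 779 normalized counts in aerated and 676, 628, 613 and 732 in Parafilm-sealed shoots. The groups did not overlap, and the level in Parafilm-sealed shoots was 662 ± 53.5 (SD, n = 4), against 890.0 ± 86.8 in aerated shoots. The log2 fold change was -0.42 (SE 0.11, 95% interval -0.66 to -0.19, limma adjusted p 0.0188). The call of HTA11 was lost when either AER3 or NON6 was left out (adjusted p 0.0569 and 0.0508). The most abundant H2A.Z gene, HTA9, had 2914, 3084, 4062 and 3001 in aerated and 2934, 2618, 2698 and 3269 in Parafilm-sealed shoots, which overlapped (-0.17, adjusted p 0.349).

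The H2B genes differed in direction. Of the 9 tested, 5 lay above 0 and 4 below. AT2G28720 (chromosome 2, 12326808 to 12327808) had 1153, 1237, 1444 and 1271 in aerated and 1031, 858, 778 and 1101 in Parafilm-sealed shoots. The groups did not overlap (log2 fold change -0.45, SE 0.13, 95% interval -0.73 to -0.16, limma adjusted p 0.0328). The call was lost when AER3, AER5, AER7, NON4 or NON6 was left out, with adjusted p values of up to 0.0810, and without AER5 it was at -0.39 (limma adjusted p 0.0755). HTB4 (AT5G59910), the most abundant H2B gene, had 4634, 4456, 5208 and 4564 in aerated and 5868, 5296, 5158 and 5843 in Parafilm-sealed shoots. Only NON6 lay below AER5 (0.23, SE 0.09, adjusted p 0.0900), and without AER5 HTB4 was called as higher (0.28, limma adjusted p 0.0420). The remaining tested H2B genes had log2 fold changes from -0.30 to 0.31. AT1G08170 and AT5G02570 were at or near 0 and not tested. As 100% of the exonic bases of AT5G02570 are shared with HTA12 and the libraries were not stranded, its 0 cannot show that it is silent.

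The 5 genes of H3.1, the replicative H3, all lay below 0, from -0.25 to -0.08, and none was called. Without AER5, AT3G27360 lay above 0 (0.12) and the others lay between -0.09 and -0.05. The most abundant, AT5G65360, had 2501, 2306, 2968 and 2236 in aerated and 2278, 2185, 2046 and 2332 in Parafilm-sealed shoots. The groups overlapped (-0.17, SE 0.11, 95% interval -0.41 to 0.06, limma adjusted p 0.274). AT1G09200 had 2034, 1924, 3110.3 and 1999.8 in aerated and 1844, 1960.3, 1707 and 1979 in Parafilm-sealed shoots. Its difference of -0.25 (adjusted p 0.264) was -0.09 without AER5, the library that held by far its highest value.

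The 3 genes of H3.3, the form used outside of replication, lay at or above 0. AT4G40040, the most abundant of all members, had 11839, 13079, 15391 and 12328 in aerated and 15555, 12411, 15399.6 and 16311 in Parafilm-sealed shoots. NON4 lay among the aerated values and AER5 just below the 3 high Parafilm-sealed values (0.18, SE 0.12, 95% interval -0.09 to 0.45, limma adjusted p 0.316). AT4G40030 and AT5G10980 had log2 fold changes of 0.07 and 0.00. The 4 other H3 genes were weakly expressed. HTR11 had 12.6 to 24.1 normalized counts in aerated and 18.8 to 27.6 in Parafilm-sealed shoots, AT1G13370 had 4.2 to 13.2 and 6.4 to 21.1, and AT1G75600 and AT5G12910 stayed at or under 4.0 and were not tested. The difference of AT1G13370, the largest rise among the members (0.66), had a 95% interval from -0.45 to 1.77 and an adjusted p of 0.373 by limma, so that its few reads cannot show a difference of this size.

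CENH3, encoded by HTR12, is loaded onto centromeres and had a lower summed level than all classes but the other H3 genes. It had 179, 152, 179 and 132 in aerated and 102, 125, 117 and 154 in Parafilm-sealed shoots. NON8 lay within the aerated range (-0.37, SE 0.17, 95% interval -0.75 to 0.02, limma adjusted p 0.155). Of the 8 H4 genes 7 lay below 0, and none was called. Without AER5, AT3G53730 moved from -0.07 to 0.08. AT5G59690 had 3213, 3050.5, 4319 and 3101 in aerated and 2408, 2358, 2218 and 3337 in Parafilm-sealed shoots. NON8 was the only Parafilm-sealed library above any aerated one (-0.41, SE 0.15, limma adjusted p 0.0841), and without it the gene was called as lower (-0.54, adjusted p 0.0151). The other 7 H4 genes had log2 fold changes from -0.27 to 0.04. For 4 H4 genes between 87.9% and 95.7% of exonic 100-base windows were unique in the genome. A part of their reads could thus not be assigned to a single copy.

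Summed over a class, the levels of the Parafilm-sealed and aerated libraries overlapped in all 11 classes. H4 genes summed to 9827, 9844, 13759 and 9832 normalized counts in aerated and 8755, 8874, 7939.9 and 11199.6 in Parafilm-sealed shoots. AER5 and NON8 were the highest of their groups, and NON8 alone lay above 3 of the aerated libraries. H3.1 genes summed to 6104, 5673, 7966 and 5751 in aerated and 5550.1, 5606, 4982 and 6006 in Parafilm-sealed shoots. H3.3 genes summed to 21200.4, 22562, 28419 and 22416 in aerated and 26823, 22278, 25509 and 27917 in Parafilm-sealed shoots. The H3.1 sum of Parafilm-sealed shoots was 0.869 times and the H3.3 sum 1.08 times that of aerated shoots, with overlap in both. Without AER5, the log2 ratio of these sums moved from -0.20 to -0.08 for H3.1, from 0.12 to 0.22 for H3.3 and from -0.23 to -0.10 for H4. For all 47 genes the sums were 81472 ± 11005 in aerated and 79620.1 ± 7060.5 in Parafilm-sealed shoots (SD, n = 4 each), a ratio of 0.977. The log2 of this ratio was -0.03, and without AER5 it turned to 0.07.

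Ratios of 2 class sums within a library do not depend on the size factor, and 4 of them were formed after the sums were seen, so they are given with no test. H3.1 over H3.3 was 0.288, 0.251, 0.280 and 0.257 in aerated and 0.207, 0.252, 0.195 and 0.215 in Parafilm-sealed shoots. NON4 was level with AER3, and the other 3 Parafilm-sealed libraries were lower than all aerated ones. H2A.Z over replicative H2A was 1.08, 1.16, 1.04 and 1.03 in aerated and 0.872, 0.837, 0.860 and 0.898 in Parafilm-sealed shoots. H2A.W over replicative H2A was 0.823, 0.853, 0.768 and 0.814 against 0.607, 0.645, 0.618 and 0.693. H4 over H2B was 0.671, 0.678, 0.733 and 0.674 against 0.538, 0.602, 0.552 and 0.648. In the last 3 ratios the groups did not overlap. Both ratios over replicative H2A share a denominator, to which HTA10 contributed means of 1529 in aerated and 1927 in Parafilm-sealed shoots. RAT5 also had a higher mean in Parafilm-sealed shoots (744 against 663), whereas HTA13 (804 against 875) and HTA2 (983 against 1171) had lower ones. The ratios were not formed without HTA10, so they cannot show that whole classes separate. AER5 was the highest aerated library in H4 over H2B and the lowest in H2A.W over replicative H2A.

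**Figure D4:**
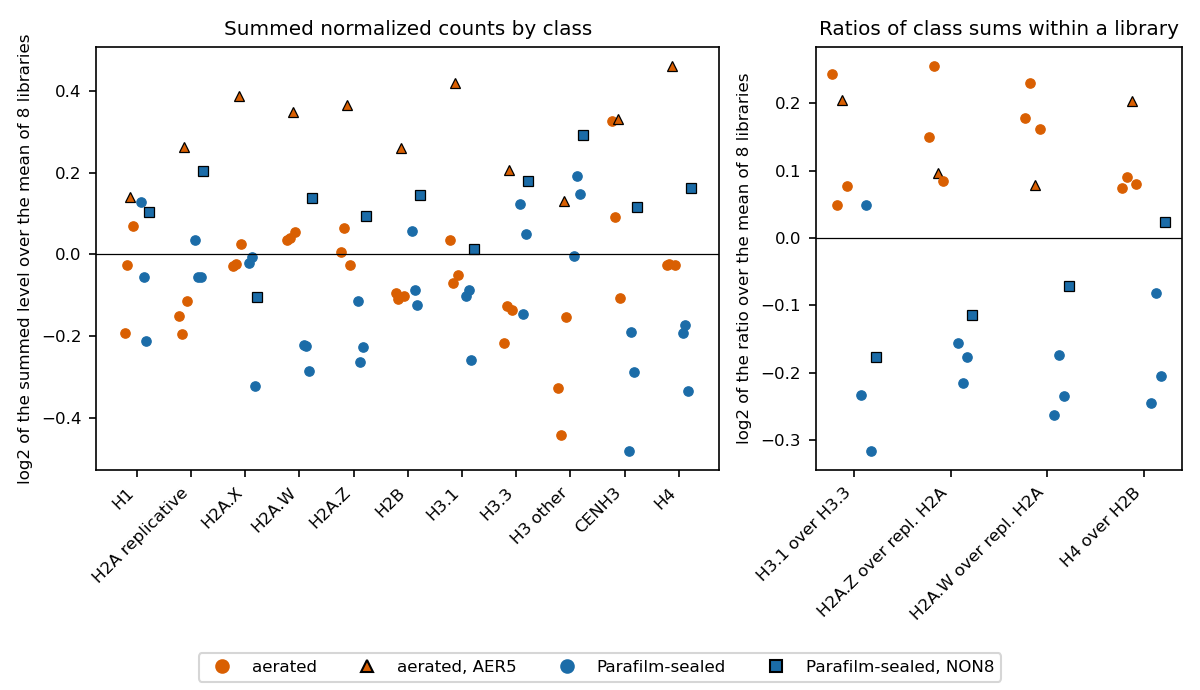
Summed normalized counts of each histone class (left) and ratios of 2 class sums within a library (right), each as log2 over the mean of the 8 libraries (y axes), with 1 point per library. Orange points are aerated and blue points Parafilm-sealed libraries, with AER5 as a triangle and NON8 as a square. The class sums of H2B run from 14372 to 18758 and overlap, whereas H2A.Z over replicative H2A separates at 0.898 against 1.03.

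Genes that act with histones in dividing cells were counted in the same fit. Of 28 genes for DNA replication, 3 fell and 0 rose (10.7% called, against 22.4% of all tested genes; median log2 fold change -0.18). CDC6, which loads the replicative helicase, fell by 1.02 on the log2 scale, from 217, 292, 298 and 269 in aerated to 119.9, 166, 129.7 and 114 in Parafilm-sealed shoots (SE 0.16, limma adjusted p 0.00222). The groups were far apart. The clamp gene PCNA2 (-0.36) and the helicase gene MCM6 (-0.44) also fell, with limma adjusted p values of 0.0308 and 0.0201. MCM6 was not called without AER1 or AER3, and PCNA2 only kept its call without AER5 or NON8. RNR1, the large subunit of ribonucleotide reductase and the most abundant of the list, was at -0.30 (adjusted p 0.0727) and at -0.39 without AER5 (limma adjusted p 0.0139). These transcripts were long, with a median of 2426 exonic bases, and AER5 was their lowest aerated library in the summed level (13453, against 15694 to 16938). Without AER5, 6 of the 28 fell and 0 rose, with 3662 of all 20293 tested genes called in that fit. E2F sites were in 46.4% of the DNA replication promoters, and the octamer in none of the 28.

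Of 29 genes for mitosis, 6 fell and 1 rose (24.1% called, close to the 22.4% of all tested genes). Their median log2 fold change was -0.25, and 28 of the 29 lay below 0, against 10122 of all 20160 tested genes. The cyclin gene CYCA3;2 had 568, 552, 630.2 and 629 in aerated and 384, 435, 286 and 422 in Parafilm-sealed shoots, with no overlap (-0.65, SE 0.14, limma adjusted p 0.00976). The other genes that fell were the cyclin genes CYCB2;3, CYCB2;4, CYC3B (AT5G11300) and CYCA2;4 and the kinase gene AUR1, from -0.58 to -0.38. Without AER5, CYCA2;4 (-0.32, limma adjusted p 0.0910) and AUR1 (-0.30, adjusted p 0.0778) were no longer called, which left 4 lower and 1 higher. In that fit, 3662 of all 20293 tested genes were called. With 1 library left out, CYCA2;4 was called without AER3 alone, and AUR1 in no case. CYCB2;3 was called only without AER5 or NON8, and CYCB2;4 only without AER5, NON4 or NON8. CYC3B lost its call without AER7 or NON2. The rise was that of PC-MYB1 (AT4G32730, MYB3R1), a regulator of mitotic genes, with 1031, 912, 616 and 939.7 against 1176, 1335, 1228 and 1161 (0.51, SE 0.15, limma adjusted p 0.0379). HIK, the kinesin gene HINKEL that acts in cytokinesis and the most abundant of the list, was at -0.06 (adjusted p 0.730). The summed level of the list did not overlap between groups, with 12758 to 13199 in aerated and 10695 to 11968 in Parafilm-sealed shoots, whereas that of the histone genes did. With 1 library left out, between 1 (without AER7 or NON2) and 6 (without NON8) genes of the list were called, and CYCA3;2 was called each time. PC-MYB1 was not called without AER3, AER7, NON2, NON4 or NON6, and without AER5 it was at 0.35 (limma adjusted p 0.0297).

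Of 13 histone chaperone genes and of 13 genes of the G1/S transition, 0 were called by limma, against 22.4% of all tested genes. An unadjusted limma p under 0.05 was reached by 2 chaperone genes and 1 G1/S gene, against 7275 of all 20160 tested genes. DESeq2 called 1 gene of each list, against 5669 of all tested genes. NAP1;2, a chaperone of H2A and H2B, had 6313, 5834, 5112 and 6089.7 in aerated and 6461, 6417, 6162 and 6086 in Parafilm-sealed shoots (0.11, SE 0.09, limma adjusted p 0.416). CDC2 (CDKA;1), the central cell cycle kinase, was at -0.18 (adjusted p 0.232). The medians of these lists were -0.06 and -0.04.

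Of 16 tested genes for these inhibitors and for the endocycle, in which cells copy DNA without dividing, 2 fell and 1 rose (18.8% called, against 22.4% of all tested genes; median -0.19, and -0.02 without AER5). AT2G32710, described as cyclin-dependent kinase inhibitor 4 and the most abundant of the list, fell from 1026, 1308, 1483 and 1381 in aerated to 512, 523, 394 and 504 in Parafilm-sealed shoots (-1.42, SE 0.14, limma adjusted p 0.000245). All Parafilm-sealed values were below all aerated ones. KRP2 fell as well (-0.62, limma adjusted p 0.0274), but was not called without AER5 (-0.56, adjusted p 0.0669), AER3, AER7 or NON6. KRP6 rose from 367, 396, 368 and 337 to 876, 564, 959 and 583 (0.98, SE 0.18, limma adjusted p 0.00410).

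**Figure D5:**
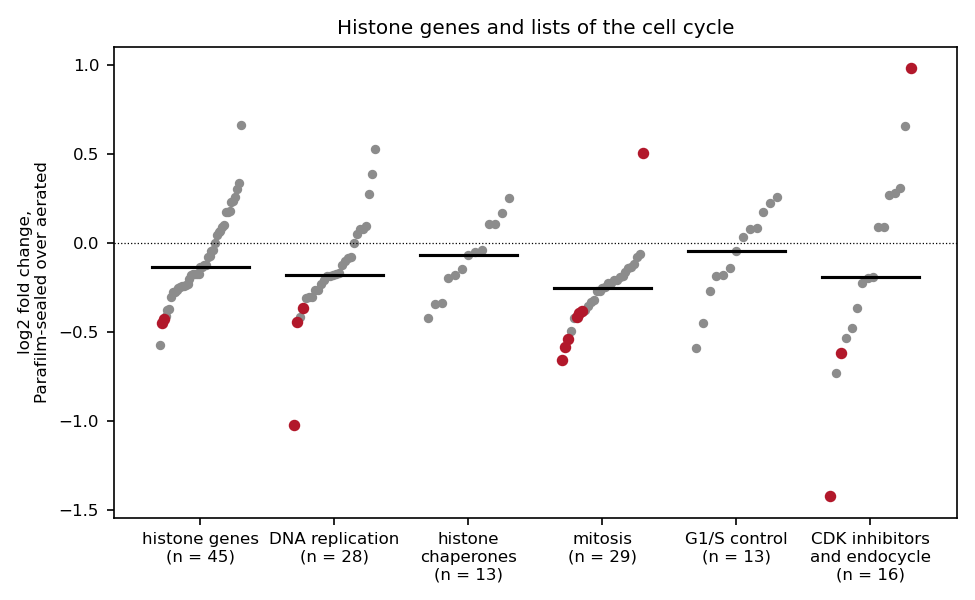
Log2 fold changes of the 45 tested histone genes and of 5 cell cycle lists (x axis; y axis: log2 of Parafilm-sealed over aerated), with 1 point per gene, red for genes called and a bar at the median. The medians lie between -0.25 for mitosis and -0.04 for G1/S control, with -0.13 for the histone genes.

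The 10 tested genes with the motif had a median log2 fold change of -0.15, with 3 above 0 and 7 below, and the 33 tested histone-class genes without it had a median of -0.17, with 12 above and 21 below. Both called genes, HTA11 and AT2G28720 belonged to the second group. In aerated shoots the median level was 2909 normalized counts per kb with the octamer and 964 without it.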

How the data were processed

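The authors mapped single-end 100-base reads from an unstranded kit with HISAT2 2.0.4 to TAIR10, counted them per gene with featureCounts 1.5.2 and scaled them by DESeq2 size factors. The deposited signal is thus a scaled read count per gene, rounded to 1 decimal. Authors' columns of fold changes and p values, and the table of the second set, which holds only these, were not used. Whole reads were recovered from the steps between low values, and at least 99.99% of values were whole within 0.051 normalized counts. Because the columns carry library numbers that the labels do not give, libraries were assigned to groups only.

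limma 3.58.1 (trend, R 4.3.3) was fitted to log2 of the normalized counts plus 1 for 20160 genes (10 normalized counts or more in 4 or more libraries; 3 where a library was left out), with Benjamini-Hochberg adjustment, so fold changes of weak genes are understated. edgeR 4.0.16 and DESeq2 1.42.0 on the recovered reads were alternatives. In a simulation of the 8 libraries and 20160 genes, limma found 96.5% of 200 altered genes, with 12 other calls. The altered genes were well expressed and changed more than most histone genes did, and no length trend was simulated. The share found therefore cannot be carried over to changes as small as those of the histone genes (median size 0.20 on the log2 scale). Intervals of fold changes cover the spread of 4 dishes per group. Gene models, lengths, overlaps, proteins and promoters came from RefSeq (TAIR10.1), to which 99.1% of the identifiers matched. Levels per kb use exonic length. Genes with values in every library were the called members, in each class the most abundant member and that with the largest change, and in each cell cycle list the largest called rise and fall and the most abundant gene. The members, lists and tests were chosen with earlier results of these data known.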

Additional observations from a re-analysis of the deposited data

Results flagged for a closer look

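Among 43 results with values per library (86 groups of 4), 17 groups had a library far from the other 3, with its gap to the nearest of them, as a share of the range, above Dixon's 95% critical value. Chance gives about 1 in 20 groups on average. The groups are not independent, because the sums contain named genes, so a single library can be counted many times. Whether the count exceeds chance was not tested. AER5 accounted for 11 of these, NON8 for 3, NON6 for 2 and AER1 for 1.

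AER5 was far above the other aerated libraries in the summed normalized counts of replicative H2A (5217), H2A.X (2918), H2A.W (4008), H2B (18760), H4 (13760) and all 47 histone-class genes (97890). It was also far above them for HTA6 (AT5G59870, 2640), H2AXA (AT1G08880, 2524), HTA9 (AT1G52740, 4062), AT1G09200 (3110) and the H4 gene AT5G59690 (4319). NON8 was far above the other Parafilm-sealed libraries in the sum of H2A.W (3469), for HTA12 (AT5G02560, 356.4) and for AT5G59690 (3337). NON6 was far below the others for the H1 gene AT1G06760 (3184) and for AT2G32710 (394.3), and AER1 was far below the other aerated libraries for CDC2 (AT3G48750, 2218).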

How the results depend on the processing

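With 1 library left out, 2852 (without AER7) to 5065 genes were called in all, 0 to 5 histone genes fell and 0 to 3 rose, and the calls ranged from 1 to 6 for DNA replication, 0 to 1 for histone chaperones, 1 to 6 for mitosis, 0 to 1 for G1/S control and 2 to 5 for CDK inhibitors and endocycle. The DESeq2 Wald test called 1 histone gene as higher, 6 DNA replication genes, 1 chaperone gene and 1 G1/S gene. It called 5669 of all 20160 tested genes. With no filter on low values, 4 mitosis genes were called, against 4251 of all 25788 genes. The next 3 settings were chosen after seeing the data. Without AER5 and NON8, 7 of the 45 histone genes fell and 2 rose, and 10 DNA replication, 1 chaperone and 2 G1/S genes were called. In that fit, 4841 of all 20176 tested genes were called. With the trend on exonic length removed, 2 histone genes rose and 8 DNA replication genes were called, against 5234 of all 20160 genes. With AER5 also left out, 1 histone gene fell, 3 rose and 6 DNA replication genes were called, against 3742 of all 20293 genes. The cause of these shifts was not tested. The median log2 fold change of the histone genes was below 0 in all settings run, from -0.22 to -0.09 with 1 library left out and -0.06 with the length trend removed. The ratio of the summed histone levels changed by less than the spread between libraries when genes that share an identical protein were left out. For the 26 genes followed under each setting, 410 of 442 values kept their direction and their side of the threshold, 18 passed it, 13 no longer did, and the H1 gene AT2G30620, called in no setting, changed sign (range -0.0070 to 0.14 with 1 library left out). edgeR, limma on TMM-scaled values and both other pseudocounts changed no count of histone calls. No paired analysis was possible because the columns carry library numbers and not the replicate numbers of the labels. Depth limits the genes under the filter and AT1G13370, with 6.4 to 21.1 normalized counts in Parafilm-sealed shoots.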
